A study of Gallus gallus with 4 samples.

Results

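The genes described here encode the small GTPases of the RAB, ARF and ARL families, which direct membrane traffic inside the cell. They were taken by their gene symbols: every array probe whose name was a RefSeq transcript of a chicken gene with a symbol of RAB, ARF or ARL followed by a digit was kept, with the brightest probe standing for a gene. The rule found 35 genes among the 5382 genes with a RefSeq-named probe, and 95 genes of the current chicken gene table carry such a symbol. Of the 35 genes, 29 encode GTPases (22 RAB, 3 ARF and 4 ARL) and 6 encode partner proteins that are only named after one (RAB3IL1, RAB3GAP2, ARL2BP, ARL6IP1, ARL6IP5 and ARL14EP), so the set is not purely one of GTPases. All 70 probes of these genes were well above background on all 4 arrays, and all 35 genes passed the filter on dim probes.

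A RAB, ARF or ARL protein switches between a GTP-bound form, which sits on a membrane and recruits effectors, and a GDP-bound form. Exchange factors (GEFs) load GTP and activating proteins (GAPs) end the signal by promoting its hydrolysis. RABs are held on membranes by prenyl groups and are recycled through the cytosol by GDI, whereas ARFs and most ARLs carry a myristoyl or acetyl group at their start. In the retina these proteins are known for the delivery of opsins to photoreceptor outer segments, the release of synaptic vesicles and the sorting of melanosomes in pigment epithelium. The roles named for single genes come from work on human, mouse and yeast proteins.

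The DAPT group held 2 cultures treated with 10 µM DAPT, an inhibitor of γ-secretase, the protease that frees the active part of the Notch receptor, and the DMSO group held 2 cultures given an equal volume of the solvent. Both groups were dissociated cells of chick neural retina, taken on embryonic day 8 (stage 33), plated in medium with fetal bovine serum, treated from day 2 and harvested on day 12. Each culture was measured on 1 one-colour array, and replicate 1 of both groups shared 1 slide and replicate 2 another. The labels do not tell whether separate embryos or platings gave the cultures of a group, so the p-values cover the spread between these arrays alone, which may be technical. DAPT also acts on other substrates of γ-secretase than Notch.

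Between 87.7% and 89.3% of spots in DAPT and between 85.7% and 87.2% in DMSO were well above background, and the number of arrays limits the precision. The cultures carried markers of retina: all 8 photoreceptor markers and all 5 neuronal markers with a named probe were well above background in both groups. Levels of cell type markers nevertheless differed between the groups. Of lens fibre markers, 8 of 9 measured rose and 0 fell, and their summed signal relative to each array's 75th percentile was 302.6 and 307.1 in DAPT, against 2.42 and 2.79 in DMSO. Of fibroblast and mesenchyme markers, 9 of 10 fell and 0 rose, with sums of 74.3 and 77.1 in DAPT, against 304.6 and 369.1 in DMSO. Photoreceptor markers fell in 7 of 8 (sums of 11.7 and 13.45 in DAPT, against 33.8 and 30.7 in DMSO), neuronal markers fell in 3 of 5 and rose in 1 (18.5 and 17.7 in DAPT, against 66.9 and 54.1 in DMSO), pigment cell markers rose in 5 of 7 (1.44 and 1.38 in DAPT, against 0.509 and 0.404 in DMSO) and cycling cell markers rose in 4 of 6 and fell in 1 (30.8 and 30.6 in DAPT, against 20.1 and 20.2 in DMSO). Of Müller glia markers 2 of 6 rose and 2 fell, and of microglia and macrophage markers 1 of 4 rose and 0 fell. The part of these markers' cell types in the differences below was not tested. In these bulk samples fewer cells of a type and less RNA per cell cannot be told apart.

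DAPT and DMSO arrays were compared to ask which transcripts of the trafficking GTPases differ after long exposure to the inhibitor. Most of these genes had similar signals in both groups, and none of the 35 differed by 2-fold. ARL1, RAB22A, RAB43 and RAB33B fell and RAB19, ARF5 and RAB3IL1 rose, by 1.35-fold to 1.70-fold. Those 7 genes are 20% of the 35, whereas 25.5% of all 32293 features on the array were called (12.3% higher and 13.1% lower). Of the 5110 features with a gene symbol, 28.2% were called. The share of trafficking genes called thus lay near the background of the array and not above it. With median scaling 4 rose and 2 fell, beside 25.7% of all features called. Of the 29 GTPases alone, a subset taken after the genes were known, 2 rose and 4 fell (20.7%). Log2 signals relative to each array's 75th percentile were tested with limma, p-values were adjusted by Benjamini-Hochberg over every feature, and a gene was called under 0.05. All log2 differences are DAPT minus DMSO, ± SE, with n = 2 arrays per group. The smallest two-sided p of an exact permutation test on so few arrays is 0.333.

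**Figure D1:**
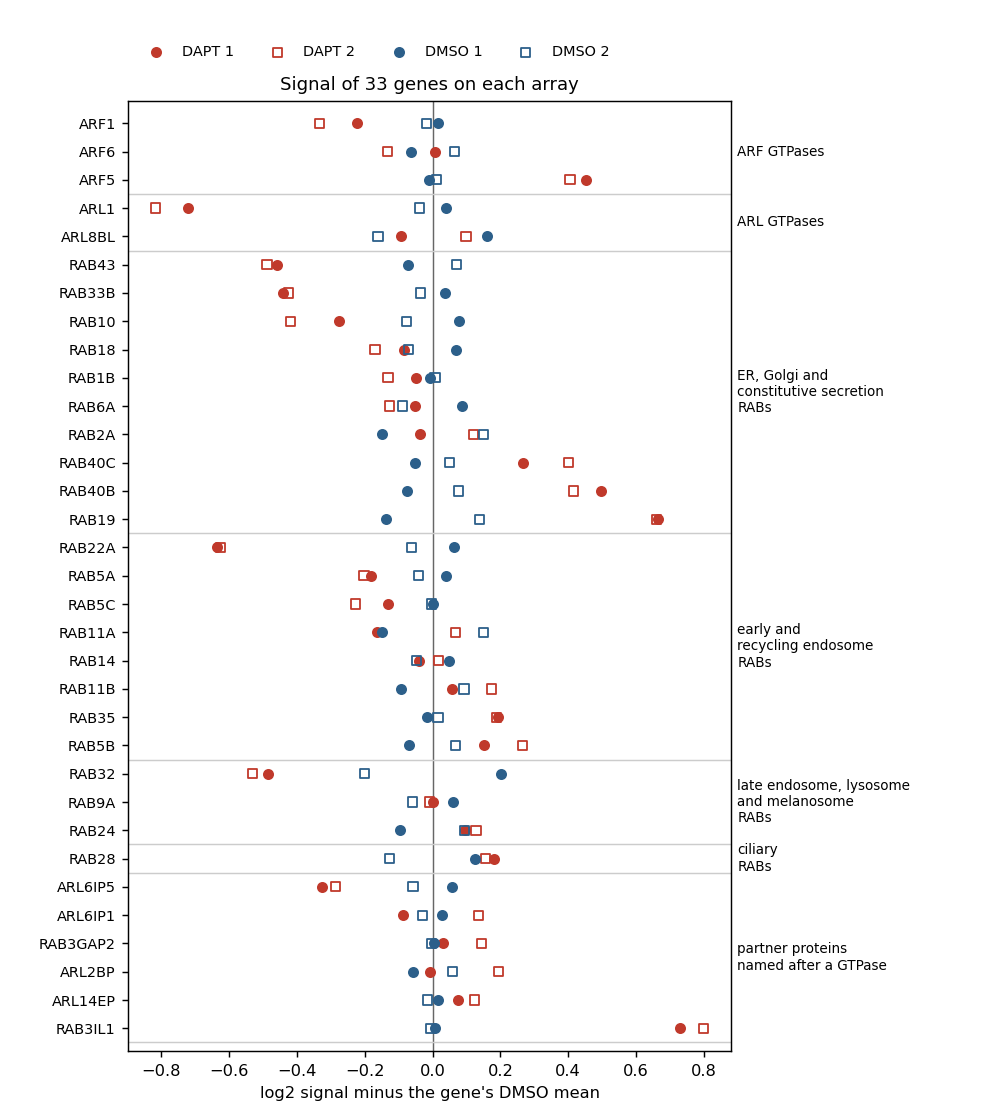
Log2 signal of 33 of the 35 genes on each array, minus that gene's DMSO mean (horizontal axis), grouped by role. Red marks are DAPT arrays and blue marks DMSO arrays, with filled circles for replicate 1 and open squares for replicate 2. The DAPT marks of ARL1, RAB22A, RAB43 and RAB33B lie left of both DMSO marks and those of RAB19, ARF5 and RAB3IL1 lie right of them, whereas 10 genes have groups that overlap.

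The differences of the 35 genes ran from -0.77 to 0.76, with 17 above and 18 below 0. Their median was -0.0038 (-0.041 on slide 1 and 0.033 on slide 2), against 0.061 over all features. With median scaling the median of the 35 genes was 0.041, against 0.105 over all features. The median size of a difference, without its sign, was 0.19 for these genes and 0.28 over all features. In 82.9% of these genes, against 70.2% of all features, the difference was under 0.5, and a 2-fold difference was reached by 0 of the 35 genes and by 12.6% of all features. The groups did not overlap in 25 of the 35 genes (12 with both DAPT arrays higher, 13 with both lower), against 65.6% of all features (36.8% higher, 28.8% lower), and 18 of these 25 genes did not pass the test. For the 28 genes that did not pass, the 95% interval of the difference lay within a 2-fold change in all 28 and within 0.5 on the log2 scale in 18. The median is a description of genes chosen with results of these arrays known, and it carries no test.

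Of the 3 ARF GTPases, ARF5 rose and 0 fell. ARF5 is an ARF of the early secretory pathway and the Golgi. Its log2 signal was -0.090 and -0.14 in DAPT, against -0.55 and -0.53 in DMSO. Both DAPT arrays were above both DMSO arrays, and the difference was 0.43 ± 0.10 (adjusted p = 0.0430 in limma; 0.46 on slide 1, 0.39 on slide 2). With the authors' values the call ended (adjusted p = 0.0652). ARF1, which recruits the COPI coat and clathrin adaptors at the Golgi, had 5.47 and 5.36 in DAPT, against 5.71 and 5.68 in DMSO. Both DAPT arrays were lower, but the difference of -0.28 ± 0.11 did not pass (adjusted p = 0.132, 95% interval -0.56 to 0.0034), and its 3 probes lay between -0.37 and -0.28. With quantile normalization ARF1 was at -0.48 (adjusted p = 0.0480). ARF6, which acts at the plasma membrane and on recycling endosomes, was at -0.063 ± 0.12, with overlapping groups and opposite signs on the slides.

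Of the 4 ARL GTPases 1 fell and 0 rose. The lowest difference of all 35 genes was that of ARL1, a GTPase of the trans-Golgi network that anchors golgin tethers. Its log2 signal was 3.64 and 3.54 in DAPT, against 4.40 and 4.32 in DMSO. The groups stood well apart, 1.70-fold lower in DAPT (-0.77 ± 0.11, adjusted p = 0.0117 in limma; -0.76 on slide 1, -0.78 on slide 2). Its other probe gave -0.90 and was called as well. ARL8BL was at 0.0033 ± 0.16, positive on slide 2 and negative on slide 1.

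Of the 10 RABs of the endoplasmic reticulum, the Golgi and constitutive secretion, 1 rose and 2 fell. The share called was 30%, against 25.5% of all features. RAB19 had -3.86 and -3.87 in DAPT, against -4.67 and -4.39 in DMSO. It rose by 0.66 ± 0.13 (adjusted p = 0.0309 in limma; 0.80 on slide 1, 0.52 on slide 2), and its other probe gave 0.69, also called. The RAB19 probe was dim, with a mean processed signal of 83.1, and with normexp background correction the difference was 0.40 and still called. RAB43, which acts in transport back to the Golgi, had -3.01 and -3.04 in DAPT, against -2.62 and -2.48 in DMSO. RAB33B, a Golgi RAB that also binds an autophagy factor, had 0.63 and 0.64 in DAPT, against 1.10 and 1.03 in DMSO. Both fell with DAPT arrays that agreed closely, RAB43 by 0.47 ± 0.11 (adjusted p = 0.0425 in limma) and RAB33B by 0.43 ± 0.10 (adjusted p = 0.0433). These calls were close to the threshold: both ended with median scaling (adjusted p = 0.0702 and 0.0627) and with normexp (0.0967 and 0.0549), and RAB43 also with quantile normalization (0.0720). The other probe of RAB33B was at -0.33 and was not called, and with the mean of both probes the call ended (adjusted p = 0.0553).

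The remaining genes of this role did not pass. RAB40B and RAB40C, atypical RABs with a SOCS box that join ubiquitin ligases, both had DAPT arrays above both DMSO arrays. RAB40B had -2.09 and -2.17 in DAPT, against -2.66 and -2.51 in DMSO, a difference of 0.46 ± 0.11 that missed the threshold by little (adjusted p = 0.0513 in limma). RAB40C had -3.39 and -3.26 in DAPT, against -3.71 and -3.61 in DMSO, a difference of 0.33 ± 0.11 (adjusted p = 0.105). Whether their probes also bind each other's transcript was not tested. RAB10, which carries vesicles to the plasma membrane, had 3.66 and 3.51 in DAPT, against 4.01 and 3.85 in DMSO, with -0.35 ± 0.12 (adjusted p = 0.111) and 3 probes from -0.45 to -0.26. RAB40B, RAB40C and RAB10 passed with the slide as a block (adjusted p = 0.0314, 0.0411 and 0.0369). In all, RAB40B passed in 7 of 14 processing alternatives, among them the test of every probe (adjusted p = 0.0475 in limma). RAB10 passed in 2 of these alternatives and RAB40C with the block alone. RAB1B, the RAB of transport out of the endoplasmic reticulum, was at -0.090 ± 0.10 and its 3 probes between -0.15 and -0.085. RAB6A, of retrograde Golgi transport, was at -0.089 ± 0.12, with overlapping groups. RAB18, of the endoplasmic reticulum and lipid droplets, had 1.80 and 1.72 in DAPT, against 1.96 and 1.82 in DMSO, and its difference of -0.13 ± 0.11 did not pass (adjusted p = 0.478). RAB2A, which acts between the Golgi and the endoplasmic reticulum, was at 0.042 ± 0.15 and had opposite signs on the slides.

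**Figure D2:**
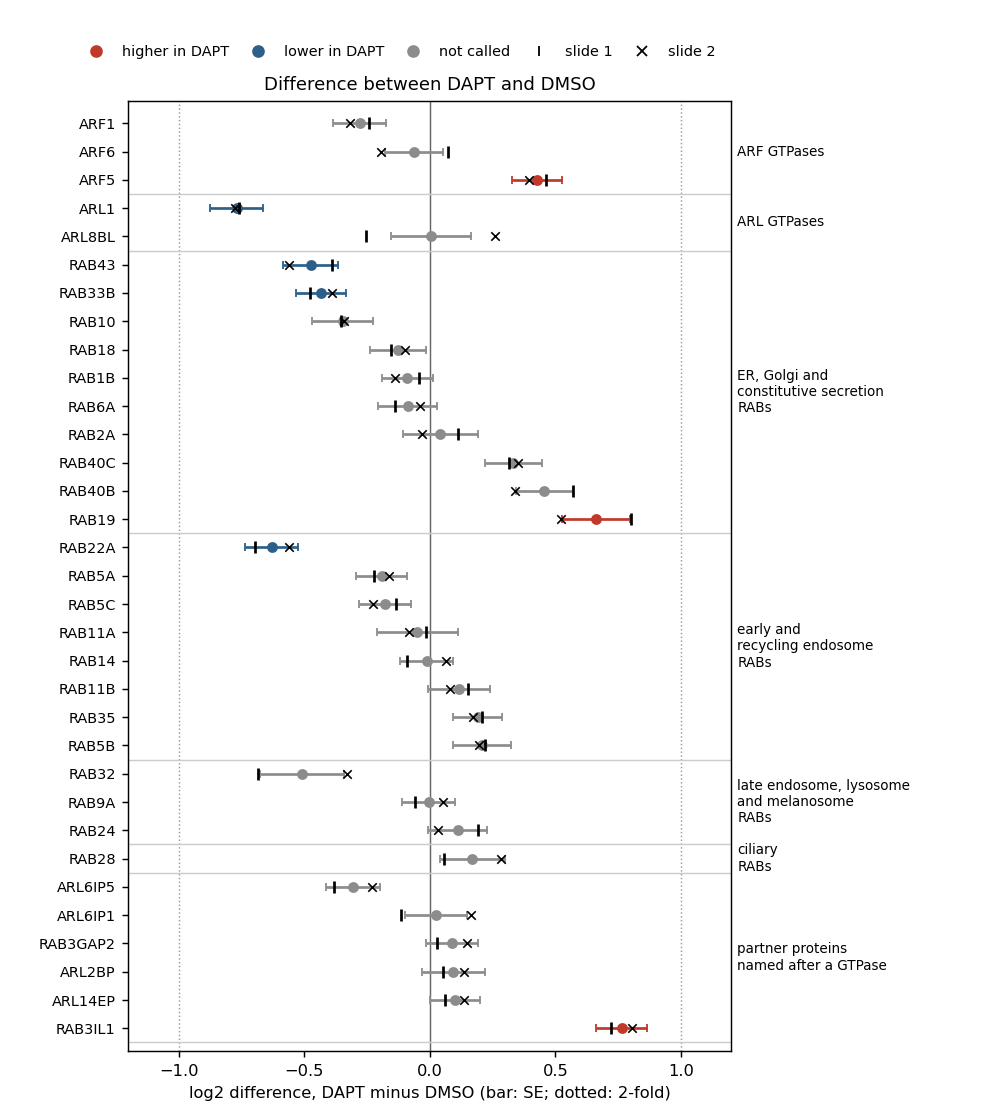
Log2 difference of 33 of the 35 genes, DAPT minus DMSO (horizontal axis), with its SE as a bar, grouped by role. Red points rose, blue points fell and grey points did not pass; vertical ticks and crosses are the differences within slide 1 and slide 2, and dotted lines mark 2-fold. All 33 points lie between the dotted lines, and 27 of these genes have the same sign on both slides.

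Of the 8 RABs of early and recycling endosomes, 1 fell and 0 rose. RAB22A, which acts on early endosomes and in recycling to the surface, had 1.09 and 1.10 in DAPT, against 1.78 and 1.66 in DMSO. It fell by 0.63 ± 0.11 (adjusted p = 0.0194 in limma; -0.70 on slide 1, -0.56 on slide 2), and all 4 of its probes were called, between -0.71 and -0.63. The members of the RAB5 group, the RABs of early endosome fusion, differed in sign without passing. RAB5A had 2.44 and 2.42 in DAPT, against 2.66 and 2.58 in DMSO (-0.19 ± 0.10, adjusted p = 0.245 in limma). RAB5C had 3.33 and 3.23 in DAPT, against 3.47 and 3.46 in DMSO (-0.18 ± 0.10, adjusted p = 0.280). RAB5B had -3.05 and -2.93 in DAPT, against -3.27 and -3.13 in DMSO (0.21 ± 0.11, adjusted p = 0.260). The RAB5B probe was much dimmer, with a mean processed signal of 175.2, against 8660.6 for RAB5A and 15580.4 for RAB5C. The DAPT arrays of RAB5A and RAB5C were below both DMSO arrays and those of RAB5B above them. The difference between these paralogs was not tested.

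The RABs of recycling endosomes and of fast recycling did not pass. RAB11A had 2.28 and 2.51 in DAPT, against 2.29 and 2.59 in DMSO, a spread between replicates larger than the difference of -0.049 ± 0.16 (95% interval -0.48 to 0.38). RAB11B had 2.61 and 2.73 in DAPT, against 2.46 and 2.65 in DMSO, with overlapping groups and a difference of 0.12 ± 0.12. RAB14, which acts between the Golgi and endosomes, was at -0.012 ± 0.10, with 3 probes between -0.045 and 0.015. RAB35, of fast recycling, had 2.56 and 2.55 in DAPT, against 2.35 and 2.38 in DMSO, and was at 0.19 ± 0.10 (adjusted p = 0.235 in limma), with 0.18 at its other probe.

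None of the 3 RABs of late endosomes, lysosomes and melanosomes passed. RAB32, a RAB of melanosomes and other lysosome-related organelles, had -2.02 and -2.07 in DAPT, against -1.33 and -1.74 in DMSO. Both DAPT arrays were lower, but the DMSO arrays lay apart, and the difference of -0.51 ± 0.17 did not pass (adjusted p = 0.0996 in limma; -0.69 on slide 1, -0.33 on slide 2). Its other probes were at -0.41 and -0.20. RAB32 passed without DMSO replicate 2 (-0.71, adjusted p = 0.0417), with normexp (-0.45, adjusted p = 0.0372) and with the slide as a block (adjusted p = 0.0381). Of the pigment cell markers, 5 of 7 rose on the same arrays. RAB9A, of transport from late endosomes to the trans-Golgi network, was at -0.0038 ± 0.11 (95% interval -0.29 to 0.28), with overlapping groups. RAB24, linked to autophagy, had 4.09 and 4.12 in DAPT, against 3.89 and 4.08 in DMSO, and its difference of 0.11 ± 0.12 did not pass (adjusted p = 0.546). No RAB of regulated exocytosis, such as RAB3A or RAB27A, was among the 35 genes. RAB28, a ciliary RAB needed in cones for outer segment shedding, had -3.56 and -3.59 in DAPT, against -3.62 and -3.87 in DMSO. Its difference of 0.17 ± 0.13 did not pass (adjusted p = 0.410), on arrays in which 7 of 8 photoreceptor markers fell.

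The highest difference of the set was that of a partner protein. RAB3IL1, an exchange factor for RAB8 that also binds RAB3A, had -4.45 and -4.38 in DAPT, against -5.18 and -5.19 in DMSO. It rose by 0.76 ± 0.10, or 1.70-fold (adjusted p = 0.0104 in limma; 0.72 on slide 1, 0.81 on slide 2), while its other probe gave 0.58 and was not called. The probe was dim, with a mean processed signal of 55.2, and with normexp correction the difference was 0.35 and the call ended (adjusted p = 0.0844). ARL6IP5, a protein of the endoplasmic reticulum, had 2.72 and 2.76 in DAPT, against 3.11 and 2.99 in DMSO, a difference of -0.31 ± 0.11 that did not pass (adjusted p = 0.110). RAB3GAP2, the non-catalytic subunit of the RAB3 GAP complex, was at 0.088 ± 0.10 with 5 probes between -0.054 and 0.088. ARL14EP, an effector of ARL14, had 1.17 and 1.22 in DAPT, against 1.11 and 1.08 in DMSO, a difference of 0.099 ± 0.10 that did not pass. ARL2BP, a partner of ARL2, was at 0.093 ± 0.13 and ARL6IP1, which shapes the endoplasmic reticulum, at 0.025 ± 0.12.

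Several probes per gene gave a further view of these values. Of the 19 genes with more than 1 probe, 14 had all probes on 1 side of 0. The 5 others (ARL14EP, ARL2BP, RAB11A, RAB14 and RAB3GAP2) had differences under 0.1 at their brightest probe. With each of the array's probes tested as a feature, 14 of the 70 probes of these genes were called (5 higher and 9 lower), against 26.4% of all probes. Probes of a gene share its transcript and are not replicates, and the part of the transcript that each covers was not analysed here.

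**Figure D3:**
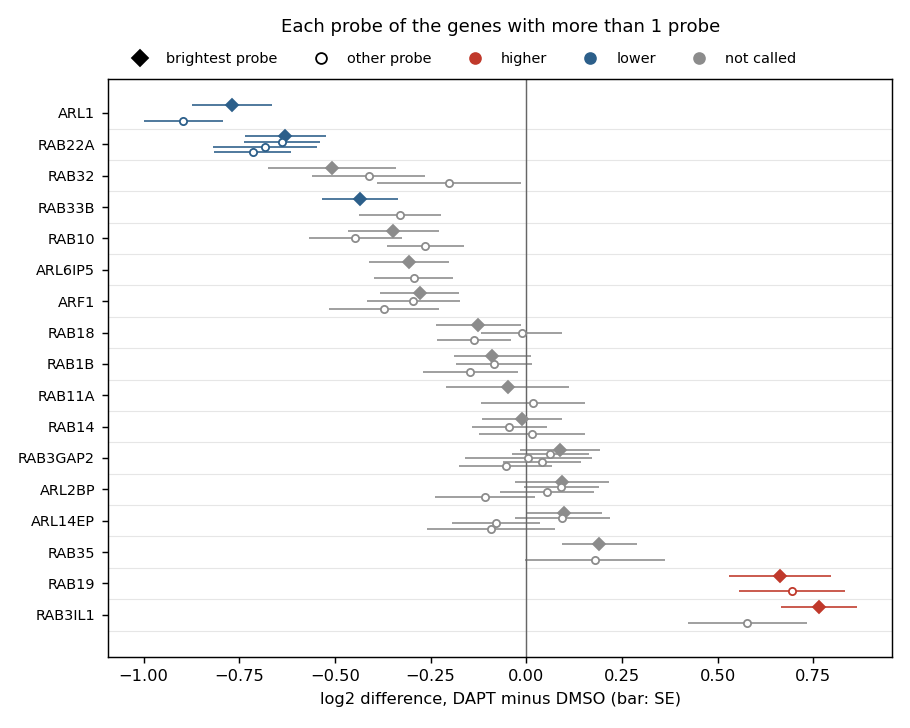
Log2 difference, DAPT minus DMSO, of each probe (horizontal axis, bar: SE) for 17 of the 19 genes with more than 1 probe. Diamonds are the brightest probe of a gene and open circles its other probes; red is higher, blue lower and grey not called when every probe is tested. The 4 probes of RAB22A lie between -0.71 and -0.63 and both probes of ARL1 below -0.76, while the probes of RAB14 and RAB3GAP2 straddle 0.

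The slides held 1 array of each group, so every gene could also be compared within a slide. The sign was the same on both slides in 29 of the 35 genes. With the slide (the replicate number) as a block, 12 of the 35 genes were called, 5 higher and 7 lower, beside 39.8% of all features (21.2% higher, 18.6% lower). All 7 calls of the unblocked fit were among these 12, and the calls added by the block included RAB32, RAB10, RAB40B and RAB40C. Leaving out an array had a larger effect. Without DAPT replicate 1 or without DAPT replicate 2, 0 of the 35 genes were called by limma (lowest adjusted p 0.0772 for ARL1 and 0.107 for RAB3IL1), where the lone DAPT array is assumed to vary like the DMSO arrays. Of all features 10.4% and 9.14% were called in the same fits. An unadjusted p under 0.05 was reached by 5 and 4 genes there, against 13 genes with all 4 arrays. Without DMSO replicate 1 the calls were ARL1 and RAB3IL1 (adjusted p = 0.0434 and 0.0377), and without DMSO replicate 2 they were ARL1, RAB22A, RAB32, RAB19 and RAB3IL1, beside 19.1% and 18.7% of all features. The calls of ARF5, RAB33B and RAB43 thus ended without any 1 of the 4 arrays, and those of RAB22A and RAB19 ended without DMSO replicate 1 (adjusted p = 0.0619 and 0.0712).

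**Figure D4:**
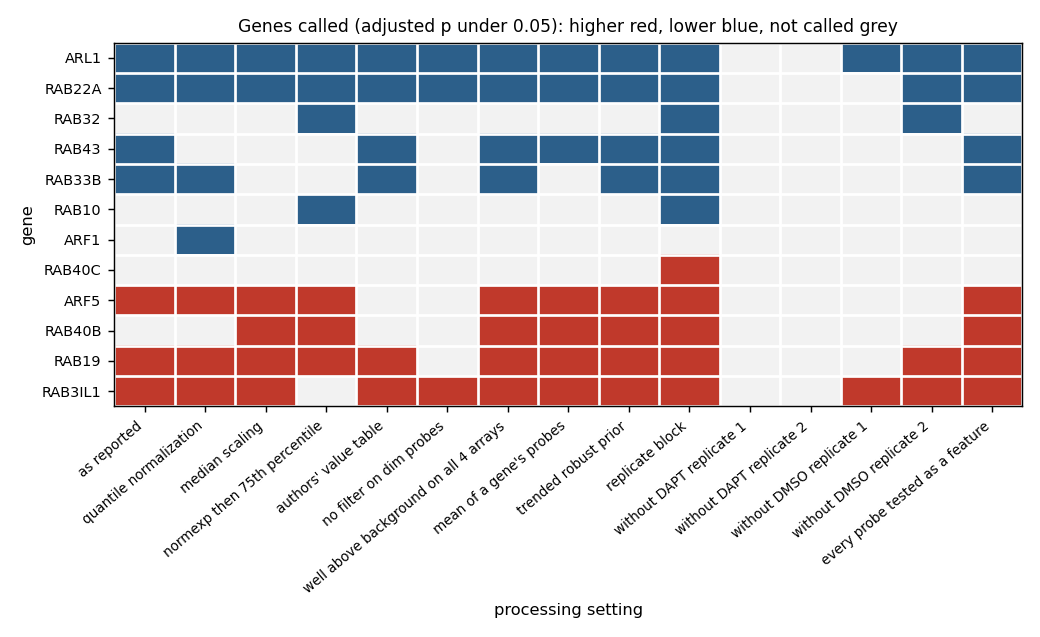
Genes of the set (rows; 1 gene is not drawn) called at an adjusted p under 0.05 in limma under each processing setting (columns; the added 2-fold limit is not drawn); red is higher in DAPT, blue lower, grey not called. ARL1 and RAB22A are blue in every drawn column that keeps all 4 arrays, and the columns without a DAPT replicate hold no call.

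Most genes that act with these GTPases did not pass either. Of 451 genes in lists of regulators, effectors, coats and SNAREs, 153 were measured under a gene name (5 of them among the 35). Of these 153 genes 16 rose and 7 fell, 15.0% in all. The share called was 25.5% over all features and 28.2% over features with a gene symbol. The split differed between settings. With quantile normalization 13 rose and 13 fell, beside 25.3% of all features called. The authors' values gave 14 and 15 (24.9% of all features) and normexp, which also starts from another signal column, 16 and 16 (23.4%). A trended robust prior gave 22 and 21 (28.9%) and the slide block 28 and 26 (39.8%). The median difference of the 153 genes was 0.029, against 0.061 over all features. By measured signal 5 of them differed by 2-fold. These include SYTL1, whose DMSO signals were not well above background, so that for SYTL1 2-fold is not shown.

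In the list of prenylation, GDI and YIPF genes, 2 of 6 fell and 0 rose (33.3%, against 25.5% of all features called). The 2 genes were YIPF5 and YIPF4, membrane proteins of the Golgi that bind RABs, at -0.54 ± 0.11 and -0.48 ± 0.10 (adjusted p = 0.0326 and 0.0307 in limma). With the slide block 9 of 25 RAB exchange factors and GAPs rose and 1 fell, beside 39.8% of all features called. Without the block 4 of 25 rose and 0 fell (16%, against 25.5% of all features). USP6NL, a GAP for RAB5, rose by 0.81 ± 0.12, RABGAP1L by 0.72 ± 0.12 and TBC1D14, a TBC protein of recycling endosomes and autophagy, by 0.57 ± 0.10 (adjusted p = 0.0131, 0.0186 and 0.0202), and the remaining one was RAB3IL1. Their log2 signals did not overlap between groups, as for USP6NL with -0.68 and -0.76 in DAPT, against -1.45 and -1.62 in DMSO.

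Of the RAB effectors and tethers 4 of 34 rose and 1 fell (14.7%, against 25.5% of all features called). With the slide block 7 rose and 6 fell, beside 39.8% of all features. EXOC6, a subunit of the exocyst that binds RAB8 and RAB11 in the tethering of secretory vesicles, had 1.94 and 1.66 in DAPT, against 0.75 and 0.34 in DMSO, and rose by 1.26 ± 0.19 (adjusted p = 0.0151 in limma). KIF20A, a kinesin that binds RAB6 and also serves cell division, rose by 1.22 ± 0.16, on arrays in which 4 of 6 cycling cell markers rose, and KIF20A is itself in that marker list. USO1, the tether p115 that RAB1 recruits, fell by 0.67 ± 0.13 (adjusted p = 0.0256). SYTL1, an effector of RAB27, did not stand well above background on the DMSO arrays, so its rise is a bound of at least 1.28-fold. The adjusted p of 0.00907 in limma belongs to its measured difference of 1.76 ± 0.22, and the bound itself was not tested. The call of SYTL1 ended with normexp (0.20, adjusted p = 0.194 in limma). For the bound, the DMSO level was raised on each array to the dimmest signal that counted as well above background, where the probe lay under it.

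Among ARF exchange factors and GAPs 2 of 12 fell and 0 rose (16.7%, against 25.5% of all features called). With the slide block 4 fell and 1 rose, beside 39.8% of all features. ARFGAP3, a GAP for ARF1 at the Golgi, was at -0.49 ± 0.12 and RP2, a GAP for ARL3 that is mutated in a form of human retinitis pigmentosa, at -0.45 ± 0.11 (adjusted p = 0.0454 and 0.0462 in limma). Both calls ended with median scaling (adjusted p = 0.0771 and 0.0807). In the list of ARF and ARL effectors and the BBSome, the ciliary coat that ARL6 recruits, 3 of 20 rose and 0 fell. The share called was 15% in this list, against 25.5% of all features. PIP5K1B, a lipid kinase of a family that ARF6 stimulates, rose by 0.89 ± 0.14, IFT27, a RAB-like subunit of intraflagellar transport, by 0.80 ± 0.11 and the BBSome subunit BBS4 by 0.53 ± 0.13 (adjusted p = 0.0165, 0.0104 and 0.0453). The call of BBS4 ended with quantile normalization (adjusted p = 0.0705) and with the authors' values (0.0705).

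Of the vesicle coat genes 4 of 28 rose and 1 fell (17.9%, against 25.5% of all features called). With the slide block 6 rose and 2 fell, beside 39.8% of all features. AP3S2 and AP3M1, subunits of the AP-3 adaptor that sorts cargo to lysosomes and melanosomes, rose by 1.03 ± 0.12 and 0.61 ± 0.11 (adjusted p = 0.00820 and 0.0226 in limma). AP3S2 had 4.22 and 4.41 in DAPT, against 3.23 and 3.34 in DMSO, 2.04-fold higher, on arrays in which 5 of 7 pigment cell markers rose. AP1S2, of the Golgi adaptor AP-1, rose by 0.76 ± 0.10, and SEC31A, of the COPII coat, was at -0.60 ± 0.13 (adjusted p = 0.00989 and 0.0350). Among SNAREs and their regulators 1 of 28 rose and 1 fell (7.14%, against 25.5% of all features called). With quantile normalization 5 were lower, beside 25.3% of all features called in either direction. With the slide block 1 rose and 10 fell, beside 39.8% of all features. STXBP6, or amisyn, which binds syntaxin and restrains vesicle fusion, had the largest difference of the 153 genes, without regard to sign, with -0.79 and -0.83 in DAPT, against 1.30 and 1.31 in DMSO. It fell by 2.12 ± 0.10 (adjusted p = 0.00129 in limma), and it was called under every alternative that kept all 4 arrays. On these arrays 7 of 8 photoreceptor, 3 of 5 neuronal, 9 of 10 fibroblast and 2 of 6 Müller glia markers also fell. In the same lists 1 of 5 neuronal and 2 of 6 Müller glia markers rose. The cell type behind the fall was not tested. SYT13, an atypical synaptotagmin, rose by 0.49 ± 0.11 (adjusted p = 0.0395), and with normexp it was at 0.25 and not called (adjusted p = 0.0893). Without DAPT replicate 1 or without DAPT replicate 2, most calls among the partner genes ended as well. With 1 array left out the difference of STXBP6 ran from -2.14 to -2.10. That of SYTL1 ran from 1.49 to 2.03, with DMSO signals that were not well above background.

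**Figure D5:**
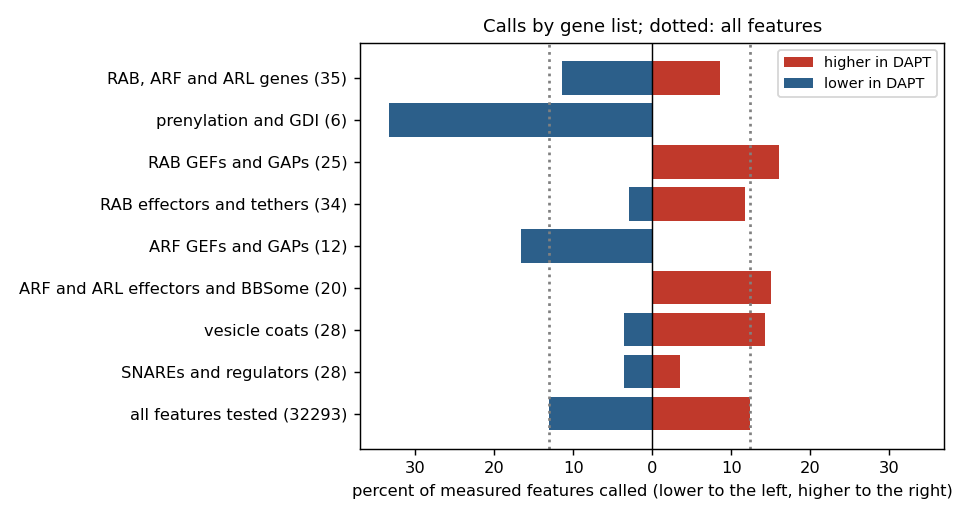
Percent of measured genes called lower (blue, to the left) and higher (red, to the right) in DAPT for the 35 RAB, ARF and ARL genes, the lists of partner genes and all features, with the number measured in brackets. Dotted lines mark the 13.1% lower and 12.3% higher of all features; each bar of a partner list rests on 0 to 4 genes.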

How the data were processed

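RNA of 4 chick retina cultures was measured on 1-colour Agilent arrays, from 100 ng of RNA each per the labels' protocols. Per the file headers, the deposited intensity values came from Agilent Feature Extraction 11.5.1.1, whose processed signal is a background-subtracted intensity. The authors' value table holds that intensity times 1 factor per array (1.46 and 1.51 in DAPT, 1.41 and 1.50 in DMSO; medians 349.8, 335.9, 380.4 and 359.4); it is linear and not centred, and what set the factors is unknown.

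Control spots and spots with an outlier flag were left out, and saturated spots were absent. The 75th percentile of each array was subtracted from its log2 processed signal, and spots of a probe were averaged. A feature is a gene (its brightest probe) or an unnamed probe, kept where both arrays of 1 group or of the other were well above background. Names came from a RefSeq table of the assembly GRCg7b, used without coordinates because the arrays refer to an older build. Tests used limma 3.58.1 (lmFit, eBayes) in R 4.3.3. The code was also run on simulated data with independent arrays, which cannot show how well the calls on these arrays hold. Deviations of arrays with the same number correlated at 0.371 across features. The genes and lists were chosen with earlier results of these data known. Among the 35 genes, array values are given for called genes, for the 12 highest and 12 lowest differences and for the largest difference of each role; from each list of partner genes up to 4 called genes are named by their difference, with array values for a few chosen after their values were seen. CLTC and EXOC4 were called and fell outside that rule, and 2 of the 35 genes, which counts include, are not reported here by themselves. Alternatives were other scalings, normexp (offset 50, median signal, because no mean signal was used here), the authors' values, other filters, probe means, a trended robust prior, the replicate block, a 2-fold change and each array left out; testing every probe was added after seeing the data.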

Additional observations from a re-analysis of the deposited data

How the results depend on the processing

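Of the 7 called genes, ARL1 and RAB22A were called under every scaling, filter and prior with all 4 arrays. Among the 35 genes, higher and lower calls numbered 4 and 2 with median scaling (25.7% of all features called), 1 and 2 without a filter (18.3% of all features) and 0 and 0 with a 2-fold change as well. Without a filter ARF5, RAB19, RAB33B and RAB43 were not called. With the replicate block 5 of the 35 genes were higher and 7 lower. Over the partner lists 28 rose and 26 fell, and over all features 6840 rose and 6013 fell. The block ended no call among the 35 genes. The replicate number is the slide number of the file headers, and the labels state no pairing. With 1 array left out, 0 to 2 of the 35 genes were higher and 0 to 3 lower, 2 to 10 partner genes rose and 1 to 3 fell, and over all features 1209 to 2932 rose and 1804 to 3339 fell. A 2-fold change as well left 4 partner genes higher (SYTL1 among them by its measured signal, not by its bound) and 1 lower, and 1570 and 2295 features. Partner genes higher and lower numbered 13 and 13 with quantile normalization, 16 and 16 with normexp and 14 and 15 with the authors' values. They numbered 13 and 2 without a filter, 17 and 11 with probe means and 22 and 21 with a trended robust prior. In the same order 25.3%, 23.4%, 24.9%, 18.3%, 25.9% and 28.9% of all features were called. The median of the 35 genes was -0.070 with quantile normalization, -0.068 with the authors' values and -0.041 to 0.067 with 1 array left out. The median over all features was 0.065, -0.0036 and 0.013 to 0.093 in these settings.

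Signs turned only for uncalled genes near 0. With quantile normalization ARL6IP1 was at -0.012, ARL8BL at -0.0039 and RAB24 at -0.026. With median scaling RAB14 was at 0.033 and RAB9A at 0.041. With the authors' values ARL6IP1 was at -0.040, ARL8BL at -0.061 and RAB2A at -0.022. With 1 array left out ARF6 ran from -0.13 to 0.0067, RAB11A from -0.20 to 0.10, RAB14 from -0.060 to 0.037, ARL2BP from -0.0067 to 0.19, ARL6IP1 from -0.087 to 0.14, ARL8BL from -0.16 to 0.16, RAB2A from -0.11 to 0.19 and RAB9A from -0.063 to 0.055. The called genes whose difference moved by over 1.5 times with normexp, RAB3IL1 and RAB19, have dim probes. The cause was not tested.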
